A study of Mus musculus with 6 samples.

Results

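The genes examined were those encoding the initiation and elongation factors of cytosolic translation. Members were taken by symbol, as every row of the hematopoietic stem cell (HSC) count table whose name starts with Eif1 to Eif6 or with Eef1 or Eef2, leaving out the kinases Eif2ak1 to Eif2ak4 and Eef2k and rows marked as pseudogenes. This gave 63 of the 34573 genes in the table. Of these, 5 carry the symbols Eif2c1 to Eif2c5, older names of Argonaute genes that serve in small RNA silencing and not in initiation, so that 58 members were translation factors. Polyadenylated RNA was sequenced from HSCs sorted from mouse bone marrow, which the study defines as lineage-negative Sca-1+ c-Kit+ CD48-CD150+ cells. There were 3 libraries from Rpl22-/- mice, labelled Rpl22 KO, and 3 from wild-type Rpl22+/+ mice. According to the methods of the study the animals were young adults backcrossed to C57BL/6. The deletion is in the germline, so every cell of a Rpl22-/- mouse carried it. Neither the sex of the mice nor the number of animals behind a library is given in the labels, so p-values measure the spread between these libraries.

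Initiation begins when eIF2, bound to GTP and the initiator tRNA, joins the small ribosomal subunit together with eIF1, eIF1A, eIF3 and eIF5, and the mRNA is brought in by eIF4F, which holds the cap-binding protein eIF4E, the scaffold eIF4G and the helicase eIF4A. The 4E-binding proteins take the place of eIF4G on eIF4E and so hold back cap-dependent initiation unless mTORC1 phosphorylates them, and eIF2B recharges eIF2 with GTP. In elongation eEF1A delivers aminoacyl-tRNA, eEF2 moves the ribosome along, and eIF5A, the only known protein with the modified residue hypusine, helps at stretches where peptide bonds form slowly. HSCs are known for a low rate of protein synthesis, and Rpl22 is a protein of the large ribosomal subunit, and the question here is how the messages of the factors that work on the ribosome differ between the genotypes.

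Between 9321123 and 13385850 reads per library fell on genes, the fewest in Rpl22+/+ replicate 3. All levels are CPM, read counts brought to a common library size after TMM scaling, which corrects for the depth and composition of the libraries. The targeted gene, Rpl22, was at 35.0, 43.9 and 41.5 CPM in the Rpl22-/- libraries and at 529, 562 and 523 CPM in the Rpl22+/+ libraries, a log2 fold change of −3.75, in the direction the labels require. The source of the Rpl22 reads that remained in the Rpl22-/- libraries was not tested. All 12 HSC markers examined were detected, at a summed 3099 to 3429 CPM in Rpl22-/- and 3191 to 3232 CPM in Rpl22+/+ HSCs, although Fgd5 was called lower and Gata2 higher in Rpl22-/- HSCs. A pair of libraries stood apart for the translation factors. Rpl22-/- replicate 2 held the highest of the 6 values for 38 of the 58 members with enough reads for a test, or 65.5%, against 22.9% of all genes tested. Rpl22+/+ replicate 3 held the lowest value for 32 of them, or 55.2%, against 18.8% of all genes. The counts of calls and the median over the members are given with and without them, as are the fold changes of Eif2b4, Eif2c3, Eif2s2, Eif2s3x and Eif5b.

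The coding sequences shown next belong to the members on which the results turn. The first pair holds the site by which each 4E-binding protein grips eIF4E. The 57 bases run from coding base 139 of Eif4ebp1 (chr8:27260547-27273375, forward strand, across the junction of exons 1 and 2) and from coding base 142 of Eif4ebp2 (chr10:61435051-61452405, reverse strand, across exons 1 and 2), and capitals mark the codons of the motif with tyrosine first and leucine sixth.
Eif4ebp1: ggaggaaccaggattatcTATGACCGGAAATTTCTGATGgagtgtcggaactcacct
Eif4ebp2: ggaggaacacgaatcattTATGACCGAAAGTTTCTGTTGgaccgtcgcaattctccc
The second pair surrounds the lysine codon of the hypusine loop in Eif5a (chr11:69918004-69919192, reverse strand, exons 3 and 4) and its paralog Eif5a2 (chr3:28782175-28782745, forward strand, exons 2 and 3), from coding base 124 to coding base 183 in each. Capitals mark the 8 of 60 bases at which the paralogs differ.
Eif5a: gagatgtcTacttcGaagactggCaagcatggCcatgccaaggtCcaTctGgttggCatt
Eif5a2: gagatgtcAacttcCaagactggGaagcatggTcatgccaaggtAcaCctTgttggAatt
The last pair is the start of the coding sequence in the gamma subunit of eIF2, which mice carry on both sex chromosomes, as Eif2s3x (chrX:94212574-94212633, reverse strand, exon 1) and Eif2s3y (chrY:1010617-1010676, forward strand, exon 1). Capitals mark the 13 of 60 bases at which the copies differ.
Eif2s3x: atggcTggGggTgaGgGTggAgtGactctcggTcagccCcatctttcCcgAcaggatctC
Eif2s3y: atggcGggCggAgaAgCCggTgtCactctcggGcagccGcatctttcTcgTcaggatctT
Coordinates are in GRCm38, the assembly also named mm10, with transcripts from GENCODE M21. Over their whole aligned coding sequences identity was 69.1% for Eif4ebp1 and Eif4ebp2, 73.2% for Eif5a and Eif5a2 and 86.3% for Eif2s3x and Eif2s3y. The longest identical run was 14, 14 and 34 bases in these pairs.

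Of the 63 members, 58 had enough reads for a test, 54 of them translation factors. The change between the genotypes was called for 3 of the 58, or 5.17%, by the quasi-likelihood test of edgeR, with p-values adjusted by Benjamini-Hochberg over 14004 genes and 0.05 as the threshold, while 5.57% of all genes tested were called. Eif4ebp1 rose in Rpl22-/- HSCs, the direction called for 3.28% of all genes, and Eif5 and Eif5a2 fell, as did 2.29% of all genes. The 3 libraries of each genotype did not overlap for 17 members (29.3%), 9 above and 8 below, against 26.9% of all genes, 13.3% above and 13.6% below. In this fit the share of members called thus lay near that of all genes. It varied with the setting. DESeq2 called 6 of 58 members, against 7.85% of all genes. With no filter on reads edgeR called 9 of 61, against 6.89%, and with RLE scaling 2 of 58, against 5.62%. At an unadjusted p below 0.05 the test marked 18 members, or 31.0%, against 22.3% of all genes.

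Most factors were measured closely. The 95% interval of the fold change lay within 1.5-fold of no change for 55 of the 58 members (94.8%), against 65.2% of all genes, many of which had fewer reads. The exceptions were Eif4ebp1, Eif5a2 and Eif2s3y. Only Eif4ebp1 had a fold change over 1.5, against 7.53% of all genes. Together the members took 2.53% to 2.84% of the reads on genes.

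**Figure D1:**
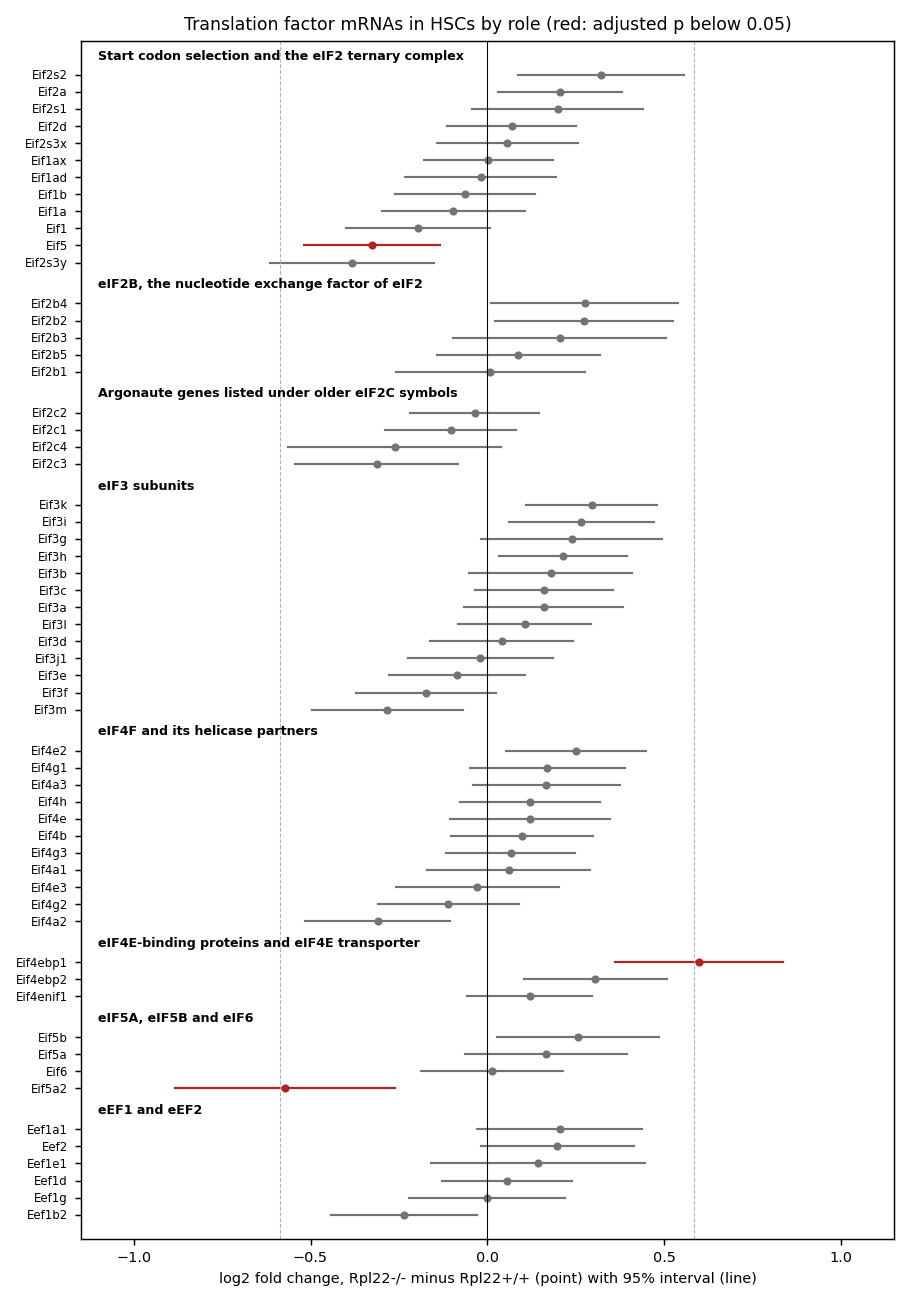
Log2 fold change (Rpl22-/- minus Rpl22+/+, horizontal axis) of the 58 members tested, grouped by role, with 95% intervals as lines, red where the adjusted p was below 0.05 and dashed lines at 1.5-fold either way. Most intervals lie inside the dashed lines, and Eif4ebp1 (0.60) and Eif5a2 (−0.57) lie farthest from 0.

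The log2 fold change was positive for 38 members and negative for 20, against 48.7% positive among all genes, with a median of 0.078 (−0.0068 over all genes). Without the Argonaute genes the median was 0.10. This lean varied with the libraries used. The median was 0.026 without Rpl22-/- replicate 2, with 31 members positive, and 0.039 without Rpl22+/+ replicate 3, with 35 positive. With both left out, an alternative added after the values were seen, it was −0.012, with 24 of 58 members positive. These libraries were picked for their high and low values of the members, so that leaving them out had to lower the median. Without Rpl22-/- replicate 1 or 3 it was 0.13 and 0.11, and without Rpl22+/+ replicate 1 or 2 it was 0.079 and 0.12. In the fit of 2 against 2 libraries edgeR called no member and 0.771% of all genes. Summed over the members, the level was 26038, 29521 and 26874 CPM in the Rpl22-/- libraries and 26456, 25754 and 24534 CPM in the Rpl22+/+ libraries, so that Rpl22-/- replicate 1 lay within the Rpl22+/+ range.

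Among the proteins that act on eIF4E, Eif4ebp1 was higher in Rpl22-/- HSCs. This gene (ENSMUSG00000031490, chr8:27260329-27276674, forward strand) encodes the 4E-binding protein best known as a target of mTORC1. Its level was 54.9, 62.0 and 46.9 CPM in the Rpl22-/- libraries, from 705, 745 and 618 reads, and 37.8, 36.1 and 34.2 CPM in the Rpl22+/+ libraries, from 492, 450 and 329 reads. Every Rpl22-/- library lay above every Rpl22+/+ library, and the Rpl22-/- libraries were spread more widely, with a coefficient of variation of 13.8% against 4.95%. The means of 54.6 ± 7.54 and 36.0 ± 1.78 CPM (SD, n = 3) differed by a log2 fold change of 0.60 (standard error 0.112, edgeR adjusted p = 0.00898), or 1.51-fold. The call held in 17 of 18 alternatives, with a log2 fold change from 0.46 to 0.70, and was lost with both Rpl22-/- replicate 2 and Rpl22+/+ replicate 3 left out (0.46, edgeR adjusted p = 0.0875).

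The other genes of this group did not pass the test. Eif4ebp2, a second 4E-binding protein, was at 96.6, 116 and 122 CPM in Rpl22-/- and at 92.2, 86.4 and 92.0 CPM in Rpl22+/+ HSCs. Its libraries did not overlap, and the log2 fold change was 0.30 (standard error 0.0949, edgeR adjusted p = 0.0704). Eif4enif1, the transporter that carries eIF4E to the nucleus and to processing bodies, had a log2 fold change of 0.12. Eif4ebp3, the remaining 4E-binding protein, had only 9, 6 and 5 reads in Rpl22-/- and 1 read in each Rpl22+/+ library, too few for the test, and 501 of its 744 exon bases are shared with another annotated gene, so its reads cannot be assigned to it with certainty. Summed over the group, the level was 277, 314 and 301 CPM against 249, 251 and 241 CPM.

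Of the eIF4F complex and its helicase partners, 11 of 12 genes were tested, and none was called. The log2 fold changes were 8 positive and 3 negative, from −0.31 to 0.25 with a median of 0.096. An unadjusted p below 0.05 was found for 2 (18.2%), against 22.3% of all genes. The cap-binding protein Eif4e, the partner of the 4E-binding proteins, was at 137, 179 and 177 CPM against 161, 156 and 136 CPM, and the genotypes overlapped (log2 fold change 0.12). Eif4e2, a relative of eIF4E that represses translation, was at 89.1, 112 and 105 CPM against 85.6, 87.4 and 84.4 CPM, without overlap, with a log2 fold change of 0.25 (edgeR adjusted p = 0.125). The helicase Eif4a2 was lower in each Rpl22-/- library, at 740, 624 and 702 CPM against 884, 889 and 789 CPM. Its log2 fold change of −0.31 (standard error 0.0967) missed the threshold with an edgeR adjusted p of 0.0704 and was called in 4 of 18 alternatives. Its paralog Eif4a1 gave 0.06, and the scaffolds Eif4g1, Eif4g2 and Eif4g3 gave 0.17, −0.11 and 0.07. Eif4g2, which lacks the eIF4E-binding part of its relatives, had the highest level in reads of the group, at 1019 ± 83.9 and 1101 ± 11.9 CPM (SD, n = 3). Eif4e1b, an oocyte form of eIF4E, had 0 of 73277376 reads over the 6 libraries, which allows a level of up to 0.0409 CPM (3 reads, counting error only).

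**Figure D2:**
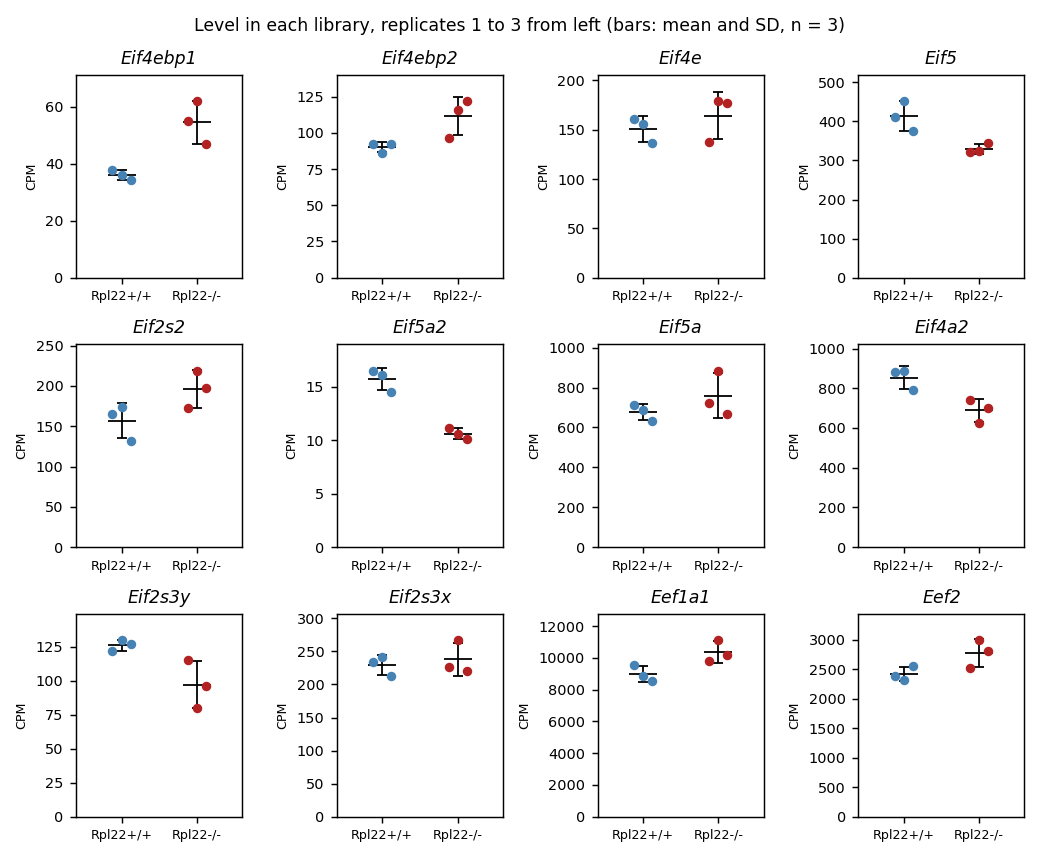
CPM (vertical axis, from 0) of 12 members in each of the 6 libraries, with horizontal bars for the mean and whiskers for the SD of 3 libraries per genotype. The genotypes do not overlap for Eif4ebp1, Eif4ebp2, Eif5, Eif5a2, Eif4a2, Eif2s3y and Eef1a1, and Rpl22-/- replicate 2, the middle point of the right-hand group, is the highest for Eif4ebp1, Eif4e, Eif2s2, Eif5a, Eif2s3x, Eef1a1 and Eef2.

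Start codon selection was the role of 12 members, of which Eif5 alone was called. Eif5 (ENSMUSG00000021282, chr12:111538016-111546752, forward strand) encodes the protein that triggers GTP hydrolysis by eIF2 at the start codon. It was at 322, 323 and 344 CPM in Rpl22-/- and at 412, 452 and 376 CPM in Rpl22+/+ HSCs. All Rpl22-/- libraries lay below all Rpl22+/+ libraries. The log2 fold change was −0.33 (standard error 0.0909, edgeR adjusted p = 0.0476), so that the level decreased by 20.2%. The call lay close to the threshold and was kept in 8 of 18 alternatives. It was lost when any single library other than Rpl22-/- replicate 1 was left out, with log2 fold changes from −0.39 to −0.26.

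The subunits of eIF2 itself were not called. Eif2s2, the beta subunit, was at 172, 219 and 198 CPM against 165, 174 and 132 CPM, with overlap between the genotypes and a log2 fold change of 0.32 (standard error 0.111, edgeR adjusted p = 0.0971), or 0.21 without Rpl22+/+ replicate 3. Eif2s1, the alpha subunit that the stress kinases phosphorylate, gave 0.20, with overlap. The gamma subunit was read from both sex chromosomes in every library. Eif2s3x was at 227, 267 and 220 CPM against 234, 241 and 212 CPM, with overlap and a log2 fold change of 0.06, or −0.03 without Rpl22-/- replicate 2 and 0.0041 without Rpl22+/+ replicate 3. Its Y-linked copy Eif2s3y was at 115, 80.2 and 96.1 CPM against 122, 130 and 127 CPM, lower in each Rpl22-/- library, with a log2 fold change of −0.38 (standard error 0.109) that missed the threshold (edgeR adjusted p = 0.0514) and was called in 7 of 18 alternatives. Because the sex of the mice is not given, the levels of other sex-linked genes are set beside it. The Y-linked genes Ddx3y, Kdm5d and Uty gave log2 fold changes of −0.19, −0.13 and −0.18, and Xist gave 1.05 (edgeR adjusted p = 0.0743), none called, and the part of a different mix of sexes in the Eif2s3y values was not tested.

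The other factors of this group were not called either. The scanning factors Eif1a, Eif1ax and Eif1b gave log2 fold changes of −0.10, 0.0020 and −0.06, and Eif1ad and Eif2d gave −0.02 and 0.07. Eif1, which guards start codon choice, was at 275, 257 and 215 CPM against 289, 282 and 285 CPM, with the Rpl22-/- libraries below the others but a log2 fold change of −0.20 that was not called. It shares 662 bases at 96.7% identity with a transcript of Emd, so its counts are uncertain. Eif2a, an alternative carrier of the initiator tRNA and not a subunit of eIF2, was at 154, 161 and 152 CPM against 127, 144 and 134 CPM, without overlap (log2 fold change 0.21, edgeR adjusted p = 0.152).

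The 5 subunits of eIF2B all had positive log2 fold changes, from 0.0082 for Eif2b1 to 0.28 for Eif2b4, with a median of 0.20. None was called, although 2 had an unadjusted p below 0.05 (40.0%, against 22.3% of all genes), and the genotypes overlapped for each. Eif2b4 was at 35.8, 48.4 and 43.2 CPM against 39.2, 33.1 and 32.8 CPM. It gave 0.17 without Rpl22-/- replicate 2, and 0.13 with Rpl22+/+ replicate 3 also left out. Eif2b2 was at 36.6, 48.9 and 48.2 CPM against 36.0, 37.1 and 37.8 CPM. Both are regulatory subunits, and both passed the test only when Rpl22-/- replicate 1 was left out. The highest value of each of the 5 subunits was in Rpl22-/- replicate 2.

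The eIF3 complex, which holds the small subunit open for the mRNA, was represented by 14 genes, of which 13 were tested. Of these, 9 had positive and 4 negative log2 fold changes, with a median of 0.16 and none called. An unadjusted p below 0.05 was found for 4 (30.8%), against 22.3% of all genes. The Rpl22-/- libraries lay above all Rpl22+/+ libraries for Eif3c, Eif3h, Eif3i and Eif3k, and below them for Eif3m. Together these were 38.5% of the subunits tested, against 26.9% of all genes without overlap. The largest positive value was that of Eif3k, at 161, 189 and 160 CPM against 139, 138 and 138 CPM, with a log2 fold change of 0.29 (standard error 0.0872, edgeR adjusted p = 0.0589). It was called in 3 of 18 alternatives. Eif3m, a subunit of the octameric core, was at 146, 149 and 123 CPM against 189, 169 and 152 CPM, with a log2 fold change of −0.28 (edgeR adjusted p = 0.104). The scaffold subunits Eif3a and Eif3c both gave 0.16. Eif3j1, the loosely bound subunit, gave −0.02, and its near-identical copy Eif3j2 had 10 reads over all libraries and was not tested. The 13 subunits tested therefore spanned −0.28 to 0.29, and the 95% interval of every one lay within 1.5-fold of no change.

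Of the factors that act after start codon choice or on elongation and subunit joining, Eif5a2 fell. Eif5a2 (ENSMUSG00000050192, chr3:28781276-28798846, forward strand) encodes the minor of the paired eIF5A proteins. It was at 11.1, 10.6 and 10.1 CPM in Rpl22-/- HSCs, from 142, 127 and 133 reads, and at 16.5, 16.1 and 14.5 CPM in Rpl22+/+ HSCs, from 215, 201 and 139 reads. The genotypes did not overlap and the libraries of each were close together. The log2 fold change was −0.57 (standard error 0.146, edgeR adjusted p = 0.0333), kept as a call in 10 of 18 alternatives. As for Eif5, the call was lost without any single library other than Rpl22-/- replicate 1, with log2 fold changes from −0.63 to −0.53 and edgeR adjusted p-values of at most 0.15 over all alternatives. The major paralog Eif5a, whose sequence around the hypusine codon differs only at the capitals shown above, did not follow it, at 725, 885 and 667 CPM against 712, 685 and 634 CPM with overlap and a log2 fold change of 0.16. Eif5b, the GTPase of subunit joining, gave 0.26 (edgeR adjusted p = 0.175). Its value was 0.16 without Rpl22+/+ replicate 3, and 0.09 with Rpl22-/- replicate 2 also left out. Eif6, which keeps the large subunit from joining early, gave 0.01. Of the reads on Eif5b an unknown part may belong to Rev1, which overlaps it on the opposite strand over 1643 exon bases, since the strand setting of the counting is not given. The same limit holds for Eif3d (2151 of 4968 exon bases), Eif3j1 (1107 of 5830) and Eif1ad (428 of 2792), and for shorter overlaps in other members.

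The elongation factors held the most reads of all members, and none of the 6 tested was called. At an unadjusted p below 0.05 there was 1 (16.7%), against 22.3% of all genes. Eef1a1, the main eEF1A gene, was at 9776, 11121 and 10180 CPM against 9577, 8837 and 8563 CPM. Its Rpl22-/- libraries lay above the others, yet the log2 fold change of 0.20 (standard error 0.11) had an edgeR adjusted p of 0.288. Eef2 was at 2516, 2992 and 2802 CPM against 2378, 2318 and 2549 CPM, with overlap and a log2 fold change of 0.20 (edgeR adjusted p = 0.27). The exchange factor of eEF1A is built from Eef1b2, Eef1d and Eef1g, which gave −0.24, 0.06 and −0.0010. Eef1b2 was at 719, 706 and 591 CPM against 803, 763 and 808 CPM, without overlap (edgeR adjusted p = 0.163). Eef1e1, a part of the tRNA synthetase complex despite its name, gave 0.14. Eef1a2, the form of eEF1A in muscle and neurons, had 2 reads over the Rpl22-/- libraries and 2 over the Rpl22+/+ libraries and was not tested.

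The Argonaute genes that the symbols brought in were kept apart. All 4 tested had negative log2 fold changes, −0.10 for Eif2c1 (Ago1), −0.04 for Eif2c2 (Ago2), −0.31 for Eif2c3 (Ago3) and −0.26 for Eif2c4 (Ago4). None was called, with 1 at an unadjusted p below 0.05 (25.0%, against 22.3% of all genes). Eif2c3 was at 62.6, 48.7 and 65.7 CPM against 68.9, 78.5 and 72.7 CPM, without overlap (edgeR adjusted p = 0.0993). It gave −0.19 without Rpl22-/- replicate 2, and −0.20 with Rpl22+/+ replicate 3 also left out. Eif2c5, annotated as a noncoding RNA, had no reads.

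Ratios between partners within a library do not depend on the scaling between libraries, and were compared for 10 pairs, chosen with the fold changes known. With 3 libraries against 3 the exact two-sided permutation test cannot give a p below 0.1, and after Benjamini-Hochberg adjustment over the 10 pairs the smallest value was 0.167, so these are descriptions. Ratios are of CPM, with no correction for length, and are compared only between libraries. Eif4ebp1 to Eif4e was 0.402, 0.347 and 0.265 in Rpl22-/- and 0.235, 0.232 and 0.252 in Rpl22+/+ libraries, without overlap but with Rpl22-/- replicate 3 close to the Rpl22+/+ range. Eif5a2 to Eif5a was 0.0153, 0.0119 and 0.0151 against 0.0232, 0.0235 and 0.0228, with the Rpl22+/+ values close together. Eif5 to Eif2s2, the GTPase-activating protein to the subunit it binds, was 1.87, 1.47 and 1.74 against 2.49, 2.60 and 2.84. The ratios Eif4a2 to Eif4a1, Eif2s3y to Eif2s3x and Eif3m to Eif3a were also lower in each Rpl22-/- library than in any Rpl22+/+ library. The ratios Eif4ebp2 to Eif4e, Eif4ebp1 to Eif4ebp2, Eif1 to Eif5 and Eif3k to Eif3a overlapped.

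**Figure D3:**
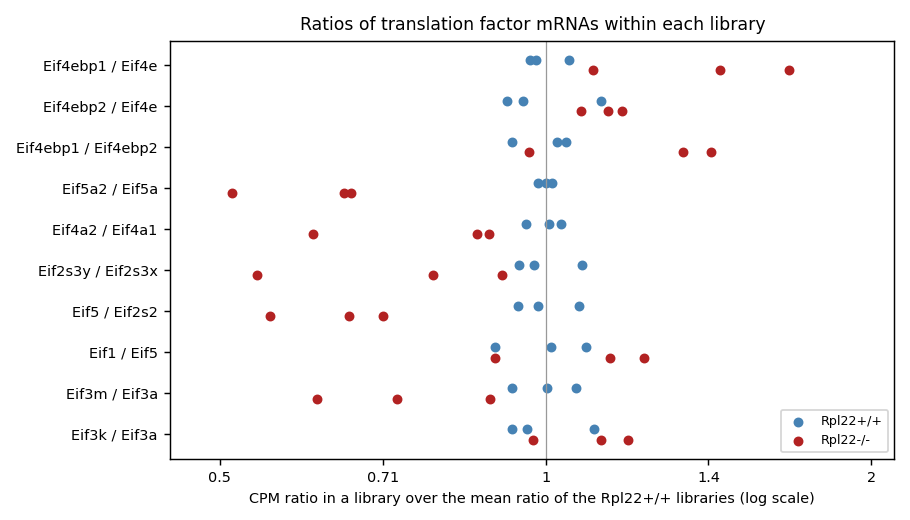
Ratio of CPM for 10 pairs of members in each library, divided by the mean ratio of the 3 Rpl22+/+ libraries (horizontal axis, log scale), with 1 point per library. Red Rpl22-/- points lie apart from blue Rpl22+/+ points for 6 pairs, among them Eif4ebp1 / Eif4e above 1 and Eif5a2 / Eif5a below 1, and overlap for 4.

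Fold changes of the members varied with the base composition of the gene. GC content was taken from the longest annotated transcript of each gene. It was 38.8% for Eif5a2 and 41.7% for Eif5, both called lower, and 48.2% for Eif4ebp1, against a median of 49.1% over the members tested. Across the 58 members the log2 fold change and GC content had a Spearman rho of 0.382, and across 13363 genes with an annotated length it was 0.276. These are descriptions across genes, which share the same 6 libraries. When each library's trends on GC content and gene length were removed, Eif5 and Eif5a2 were no longer called, at −0.20 and −0.41. Eif4ebp1 stayed called, and Eif2a and Eif2s2 were called higher. The part of base composition in the fall of Eif5 and Eif5a2 was not tested further.

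**Figure D4:**
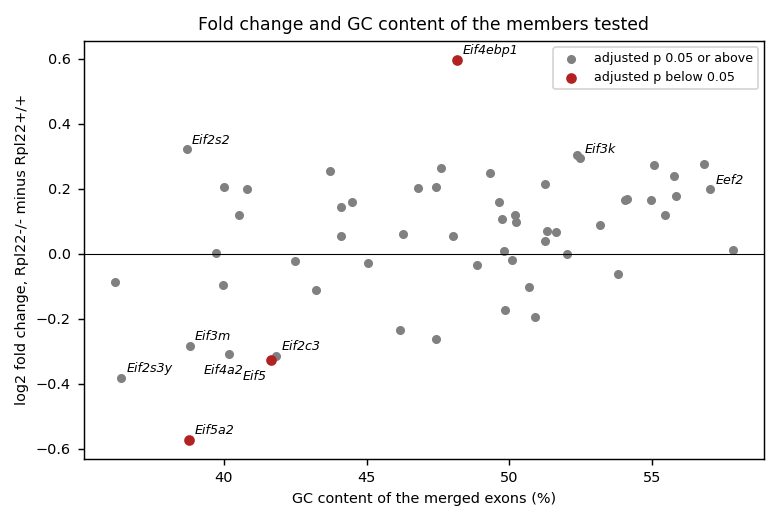
Log2 fold change (Rpl22-/- minus Rpl22+/+, vertical axis) against GC content (horizontal axis, percent) for the 58 members tested, with called members in red. The axis label names the merged exons, but GC content was taken from the longest annotated transcript of each gene. Eif5 and Eif5a2 lie among the members low in GC content, as do Eif4a2, Eif3m and Eif2s3y, which were not called, while Eif2s2, also low in GC content, has a positive value.

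Levels can be compared between members only per length. CPM per kilobase of merged exons, scaled to the same sum over all genes in each library, was highest for Eef1a1, at 12839, followed by Eef2 at 2582, Eef1g at 1278, Eif5a at 999 and Eef1b2 at 962, as means of 6 libraries. Eif4a1 was at 620. With the longest coding transcript of each member the values were 17623 for Eef1a1, 2744 for Eef2, 1760 for Eef1g and 1632 for Eif5a. The order below these depended on which length was used, since by the longest transcript Eif4a1, at 1497, lay above Eef1b2, at 1241. Among the 13 eIF3 subunits with enough reads for a test, the level per length ran from 52.3 for Eif3j1 to 532 for Eif3h by merged exons. By the longest coding transcript Eif3j1 was again the lowest of the 13, at 55.6, and Eif3e was the highest, at 753. Within eIF2B it ran from 13.0 for Eif2b3 to 80.5 for Eif2b5 by merged exons. Eif5a2, at 8.74 per length against 999 for Eif5a, was the lowest of the called members.

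Genes that act with the factors were taken from 7 lists, of 76 genes tested, of which 4 were called higher and 3 lower. Among all 14004 genes tested 3.28% were called higher and 2.29% lower. The eIF2 alpha kinases Eif2ak1 to Eif2ak4 and the eEF2 kinase Eef2k were not called. The smallest p among them belonged to Eif2ak4, which senses amino acid shortage, with a log2 fold change of −0.24 (edgeR adjusted p = 0.111), while Eif2ak1, Eif2ak2, Eif2ak3 and Eef2k gave 0.21, 0.03, −0.07 and −0.05. Of 14 other regulators of initiation, 2 rose and 12 were not called. Ppp1r15a, which directs the phosphatase that reverses eIF2 alpha phosphorylation, was at 49.1, 49.7 and 52.7 CPM against 32.8, 35.6 and 34.9 CPM, without overlap (log2 fold change 0.55, edgeR adjusted p = 0.00639). It is also an immediate early gene, and of the other 13 tested genes of that list 5 were called higher, and all 18 others in the table were at a summed 381 to 568 CPM against 294 to 357 CPM. Their part in its rise was not tested. Abcf1, an ATPase that binds eIF2, was at 191, 241 and 219 CPM against 184, 170 and 153 CPM (0.36, edgeR adjusted p = 0.0477).

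Of 19 tested genes of mTORC1 signalling to translation, 1 rose. This was Lamtor2, a subunit of the complex that holds mTORC1 at the lysosome, at 38.5, 51.6 and 45.4 CPM against 30.1, 28.7 and 29.8 CPM (log2 fold change 0.61, edgeR adjusted p = 0.0104). Mtor itself gave −0.21 and was not called. Of 13 factors of termination, recycling and rescue, Ltn1, the ubiquitin ligase for stalled chains, fell (−0.33, edgeR adjusted p = 0.0321), and the other 12 were not called. Paip2b, an inhibitor of the poly(A)-binding protein, fell (−0.48, edgeR adjusted p = 0.0133) among 9 tested genes of that list. Guf1, a GTPase of mitochondrial translation, fell (−0.39, edgeR adjusted p = 0.0285) among 10. Dph5, an enzyme that makes the diphthamide on eEF2, rose (0.41, edgeR adjusted p = 0.0457) among 6 tested genes that modify elongation factors or serve selenocysteine. Dhps and Dohh, which make the hypusine on eIF5A, gave 0.19 and 0.31 and were not called.

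Some features of the members that the choice did not use were also compared. A snoRNA is annotated inside 8 of the members, namely Eef1b2, Eef2, Eif3a, Eif4a1, Eif4a2, Eif4g1, Eif4g2 and Eif5, a group formed after the values were seen. Their log2 fold changes were 4 positive and 4 negative with a median of −0.03, and 1 was called (12.5%), which was Eif5. The 46 tested translation factors that host none had 34 positive and 12 negative with a median of 0.11, and 2 called (4.35%). Among all genes tested 48.7% were positive and 5.57% called, and a single gene sets the share of the hosts. The motif CACGTG, the E-box that Myc and its relatives can bind, which reads the same on both strands, was searched in the 250 bases before the start of each RefSeq gene. It was found for 10 of the 48 members with a promoter in the table, or 20.8%, against 6.9% of all 27025 RefSeq promoters by gene and 9.9% of the genes tested. The 10 were Eef2, Eif1b, Eif3f, Eif3k, Eif4a1, Eif4e, Eif4g1, Eif4h, Eif5a and Eif5a2. Eif4ebp1 was not among the 48, so it was not searched. The median log2 fold change of the 10 was 0.12, against 0.092 for the 36 tested members without the motif. Over all genes tested it was −0.0075 with the motif and −0.0061 without. The windows of Eif5a2 (chr3:28781118-28781157, forward strand) and Eef2 (chr10:81176571-81176610, forward strand), from RefSeq on GRCm38.p6, are shown because one member fell and the other is the translocase, with the motif in capitals.
Eif5a2: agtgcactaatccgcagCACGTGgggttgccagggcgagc
Eef2: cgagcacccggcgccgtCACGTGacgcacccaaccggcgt
Eif5a2 holds 2 such motifs in the 250 bases, of which the one shown starts 142 bases before the start of the gene. Eef2 holds 1, which starts 43 bases before it. A match describes the sequence only.

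Markers of other cells and states moved with the genotypes or with single libraries. Of 7 tested megakaryocyte markers 5 were called higher, and the list summed to 1266, 1151 and 1004 CPM in Rpl22-/- and 743, 943 and 723 CPM in Rpl22+/+ libraries, with Gp6 at 0. Neutrophil and granulocyte progenitor markers summed to 108, 225 and 100 CPM against 84.3, 66.9 and 106 CPM, with 2 of 9 called higher, and genes of proliferation summed to 3688, 4974 and 4811 CPM against 4194, 4300 and 4176 CPM, with none of 16 called. Rpl22-/- replicate 2, the library in which most translation factors were highest, was thus also the highest for both lists. Rpl22+/+ replicate 3, in which most were lowest, was the highest of its genotype for the first list (106 CPM). For the second it was the lowest of its genotype, close to the others (4176 CPM). Erythroid markers summed to 35.9 to 39.7 CPM against 32.0 to 33.3 CPM, B cell markers to 27.1 to 29.6 CPM against 23.2 to 25.2 CPM with Ms4a1 and Igll1 at 0, T cell markers to 17.8 to 25.9 CPM against 19.7 to 25.1 CPM with Cd3e at 0, and markers of CD48-positive and multipotent progenitors to 445 to 532 CPM against 512 to 521 CPM with 1 of 5 called lower. In bulk RNA a change in the share of a cell type and a change of RNA per cell cannot be told apart, and the part of these differences in the levels of the translation factors was not tested.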

How the data were processed

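RNA sequencing libraries of sorted HSCs, 3 per genotype, were grouped by their genotype labels. Reads were aligned to mm10 with TopHat2 2.1.1, and the authors deposited the HTSeq counts per gene as raw whole numbers. The annotation and strand setting of HTSeq are not given in the sources used here. The 5 lines of HTSeq totals, 58.6% to 60.9% of all counts, were left out of library sizes and tests.

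In edgeR 4.0.16 (R 4.3.3) genes were kept by filterByExpr (minimum count 10), scaled by TMM and compared by the quasi-likelihood test, with p-values adjusted over 14004 genes by Benjamini-Hochberg. Called means an adjusted p below 0.05. With 3 values per genotype, precision is given by standard errors and 95% intervals. The members and all gene lists were chosen with earlier results of these data known. Members named were those called in any setting, the 5 highest and 5 lowest log2 fold changes, the highest levels of each role, those with too few reads, and members set beside them as partners or subunits. From the pathway lists the called genes, and the kinases, were named, with Mtor, Dhps and Dohh named after their values were seen.

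Alternatives were DESeq2 1.42.0 (the test of the study), limma-voom 3.58.1, scaling by RLE, by upper quartile or by library size alone, no filter, at least 10 counts in every sample, a replicate term, removal of length and GC trends (lowess, span 0.3), each library left out, and, added after seeing the data, 2 libraries left out together and near-identical pseudogene copies summed. Such copies were found with BLAST+ 2.17.0 (at least 95% identity over 200 bases and 50% of the transcript). The scripts were tested on simulated data. Positions and lengths came from GENCODE M21 (all 63 members matched), promoters from RefSeq. Python 3.11.15, pandas 2.3.3, scipy 1.17.1, Biopython 1.88 and matplotlib 3.10.9 were used.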

Additional observations from a re-analysis of the deposited data

How the results depend on the processing

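The count of members called higher was 1 and of those called lower 2. The first was 2 with DESeq2, 4 with no filter (of 61 members tested), and 3 with length and GC trends removed, with or without the replicate block. The second was 1 with RLE factors, 3 with limma-voom and with at least 10 counts in every sample, 4 with library size alone, 4 with DESeq2, 5 with no filter and 0 with the trends removed, with or without the block. In these settings, with all libraries kept, 3.58% to 7.85% of all genes were called, with 7.85% in DESeq2 and 6.89% with no filter. With single libraries left out the counts ran from 1 to 8 higher and from 0 to 4 lower, with the most calls, 8 and 4, without Rpl22-/- replicate 1, when 12.1% of all genes were called, and 1 and 0 without any other library, when 0.892% to 2.59% were. With Rpl22-/- replicate 2 and Rpl22+/+ replicate 3 both left out they were 0 and 0, and 2 genes of the pathway lists were called, against 7 with all libraries and 2 to 16 with single libraries left out. The causes were not tested. In the replicate block alone 1 and 2 members were called, Eif2s3y in place of Eif5, and 6.46% of all genes. Replicate numbers are shared by the labels of both genotypes. Same-numbered libraries had correlations of deviations of −0.103, 0.0549 and 0.0448, and Rpl22-/- replicate 1 correlated best with Rpl22+/+ replicate 3 (0.132). Deviations were taken from the mean of each genotype, which ties its libraries together. These values cannot settle whether same-numbered libraries share a batch. Of 306 combinations of 17 named members and 18 alternatives, 258 kept their direction and side of the threshold, 27 gained a call, 19 lost one, and 2 changed sign, both for Eif2s3x, which was never called (−0.0342 to 0.1102 with single libraries left out and −0.0848 with both). Near-identical pseudogene copies held reads equal to 0.298% of those of Eef1a1, and summing them changed no call, but reads that did not align uniquely were not counted. Depth limited Eef1a2, Eif3j2, Eif4e1b and Eif4ebp3, and a fold change under about 1.5 for members with few reads.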
